A study of Mus musculus with 14 samples.

Results

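Integrin beta subunits were followed across the cell types of the retina and of brain vascular fragments in mice with and without early postnatal loss of the TGF-beta receptor *Tgfbr1* in endothelial cells (ECs). The members are *Itgb1*, *Itgb2*, *Itgb3*, *Itgb4*, *Itgb5*, *Itgb7* and *Itgb8*, chosen by name as genes of this family. They are 7 of the 28929 gene symbols of both count matrices, and all 7 were found in the brain matrix of 26528 symbols and in the retina matrix of 28316. The family genes *Itgb6* and *Itgb2l* are not among the members. *Itgb6* had 121 UMIs (unique molecular identifiers, each standing for a captured transcript) in the brain and 152 in the retina, and *Itgb2l* had 12 and 0.

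Integrins are receptors made of an alpha and a beta subunit, which bind matrix or other cells outside the cell and, through talin and kindlin at the tail of the beta subunit, the actin cytoskeleton inside it. The beta 1 subunit pairs with the largest set of alpha subunits, among them receptors for collagens, laminins and fibronectin, and is needed in ECs for stable vessels. The beta 3, beta 5 and beta 8 subunits pair with alpha v, and alpha v beta 8 on glia of the central nervous system releases active TGF-beta from its latent complex. The beta 2 and beta 7 subunits belong to leukocytes, where they serve adhesion to vessel walls, and beta 4 pairs with alpha 6 in laminin receptors of epithelia.

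The libraries came from single-nucleus RNA sequencing with PIPseq, which counts transcripts from their 3′ ends. CKO mice were *Cdh5CreER;Tgfbr1 CKO/-*, in which Cre under the EC gene *Cdh5* (VE-cadherin) was activated with 4-hydroxytamoxifen between postnatal days 3 and 5. Controls carry the label wild type, and the study describes its controls as phenotypically wild type, typically with *Cdh5CreER* and 1 floxed allele, without giving the alleles of the sequenced animals. Whether these controls received 4-hydroxytamoxifen is not given either, so that its effect cannot be told apart from that of genotype. The methods give the age as postnatal day 14, whereas the series text speaks of young adults. The retina set had 1 control and 11 CKO libraries from whole retinas, with the number of mice per library not given. The brain set had 1 control and 1 CKO library of vascular fragments, each from a pair of pooled brains.

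The retina control held 11513 nuclei and 30989702 UMIs, and its median nucleus had 1595 UMIs. The CKO retinas held 104 nuclei at the lowest, 4210 at the median and 18862 at the highest, and between 90449 and 55803724 UMIs. Their median UMIs per nucleus ran from 613 to 4041. The brain control held 16649 nuclei and 49798325 UMIs, and the brain CKO library 14675 nuclei and 31033373 UMIs, where the median nucleus had 1541 and 1395 UMIs. Libraries shared few barcodes, with 2 of 31322 distinct barcodes in both brain libraries and 10 of 77666 in more than 1 retina library. Of 108974 distinct barcodes over all 14 libraries, 14 were found in both the brain and the retina set.

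Some retina libraries stood apart. CKO 4, with 104 nuclei of which 65 were labeled immune cells, and CKO 5 make up batch 2, and both are named in the curation by hand that preceded the deposit. Batch 1 holds the control and CKO 1 to 3, and batch 3 holds CKO 6 to 11, of which CKO 8 to 11 were made with the v5.0 kit and all others with v4.0 PLUS. Batch 3 may have been counted with another set of genes, which was not tested, although the methods name the same index for all reads. By symbols with UMIs, batches 1 and 2 shared 24645 with batch 3, while 1306 were found only in the former and 1848 only in the latter. All 7 members had UMIs in both sets of batches. *Xist*, expressed from the inactive X chromosome of females, was at 6779 CPM (counts scaled to a common total of UMIs, the usual unit of such libraries) in the retina control, from 5577 to 6823 in CKO 1, 2, 4 and 7, and at most 12.9 in every other CKO retina. In the brain it was at 1963 CPM in control and 1.29 in CKO nuclei, so that sex and genotype cannot be told apart there.

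*Tgfbr1* itself was at 89.0 CPM in the retina control (95% interval 85.7 to 92.4; all intervals of counts are exact and cover counting error only). The CKO retinas gave 71.4 CPM at the lowest, 79.4 at the median and 365 at the highest, the last from 33 UMIs in CKO 4, and 87.0 at the highest without it. In brain ECs *Tgfbr1* was at 69.1 CPM in the control (62.5 to 76.2) and 62.9 in the CKO library (57.1 to 69.1). Counts from the 3′ end do not separate deleted from intact transcripts, so these values check nothing about the deletion.

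Levels are CPM of the summed UMIs of all nuclei with the same cell type label in a library. The labels are those of the authors, and were compared with marker lists. In the retina, the lists for rods, cones, rod bipolar cells, cone bipolar cells, horizontal cells, amacrine cells, retinal ganglion cells, Müller glia, astrocytes and microglia were each highest in the label of that name, microglia in the immune label. No retina label names ECs or pericytes. The EC list was highest in Müller glia, at a mean of 1320.1 CPM with *Flt1* as its most abundant gene, and the pericyte list in astrocytes, at 481 CPM with *Rgs5* as its most abundant gene. In the brain, the EC list was highest in ECs, at 11265 CPM in control and 8993 in CKO nuclei, and the lists for vascular smooth muscle cells (vSMCs), astrocytes, oligodendrocytes, oligodendrocyte precursors (OPCs), microglia and pericytes were highest in the labels of those names. The label glia went against its name, since the fibroblast list was highest there (5097 CPM in control and 4936 in CKO nuclei, 6 of 6 markers detected, *Col1a2* the most abundant), and it is called the label glia below. Brain ECs also held 8390 CPM of the pericyte list in control and 7127 in CKO nuclei, and 18582 and 9033 CPM of the erythroid list, which was highest in this label.

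In the retina none of the members passed the test between genotypes in any cell type. Sums per library and label were fitted with edgeR's quasi-likelihood test with the kit as covariate, for each gene with at least 50 UMIs, with Benjamini-Hochberg adjustment over all genes of a label. Of 32 member and label pairs in 11 labels, 0 were called at an adjusted p of 0.05, 1 had an unadjusted p below 0.05, and 17 had a higher fitted level in CKO, with a median log2 change of 0.01. Over all genes, 4 of 131793 pairs were called (0.00304%), so that a count of 0 among 32 says little about the members. An unadjusted p below 0.05 was found for 4279 of these pairs (3.25%). DESeq2 also called 0 of the 32, with 2 below an unadjusted p of 0.05. It gave no adjusted p for *Itgb8* in glycinergic amacrine cells, horizontal cells and rod bipolar cells, which could therefore not be called. The 4 pairs called over all genes, named after their values had been seen, were *Gm17167*, lower in CKO cones (log2 change -3.65), GABAergic amacrine cells (-2.05) and Müller glia (-2.81), and *Adamts19*, higher in glycinergic amacrine cells (4.01). Called pairs split into 1 higher and 3 lower by edgeR and into 1060 higher and 45 lower by DESeq2. Replicate p-values measure the spread between libraries, and the lone control was assumed to vary like the CKO libraries.

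*Itgb1* was found in every retinal cell type. Its mean level over libraries was 176 CPM ± 147 (SD, n = 9) in astrocytes, 104 ± 29.3 (n = 12) in immune cells, 92.2 ± 13.8 (n = 11) in Müller glia and 78.1 ± 18.8 (n = 12) in retinal ganglion cells. GABAergic and glycinergic amacrine cells, horizontal cells, cone bipolar cells, cones and rods followed with means from 68.0 down to 52.5 CPM, and rod bipolar cells were lowest at 39.6 ± 9.67 (n = 11). The astrocyte mean and spread rest in part on CKO 2, where 8 UMIs in 12 nuclei gave 538 CPM, next to 233 in the next library. Neighbors in this order mostly lay within the spread between libraries: astrocytes were above immune cells in 7 of 9 libraries, immune cells above Müller glia in 7 of 11, and Müller glia above ganglion cells in 8 of 11. Ganglion cells were above GABAergic amacrine cells in 11 of 11 libraries, and rods above rod bipolar cells in 9 of 11.

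The control lay at the edge of the CKO libraries for *Itgb1* in a few labels. In ganglion cells the control was at 99.3 CPM (87.2 to 113), and the CKO libraries were at 27.7 at the lowest, 82.2 at the median and 93.1 at the highest. None of 11 CKO libraries was above the control, and the lowest value came from CKO 4, without which and without CKO 5 the lowest was 62.9. The fitted log2 change was -0.40 (SE 0.26), with an adjusted p of 1.00 by edgeR. In immune cells the order was the other way around: the control gave 61.2 CPM from 7 UMIs (24.6 to 126), and the CKO libraries 46.5 at the lowest, 107 at the median and 139 at the highest. There 10 of 11 CKO libraries were above the control, with a log2 change of 0.68 (SE 0.64) and an adjusted p of 0.997. Over the 11 labels the fitted log2 changes of *Itgb1* ran from -0.40 to 0.90, 6 of them above 0.

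Among the partners of alpha v, *Itgb5* marked immune cells and horizontal cells. Its mean was 336 CPM ± 169 (SD, n = 12) in immune cells, 179 ± 58.3 (n = 11) in horizontal cells, 103 ± 17.0 (n = 11) in Müller glia and 33.2 ± 15.4 (n = 9) in astrocytes. The remaining labels had means from 18.2 CPM in rod bipolar cells down to 9.42 in ganglion cells. This order was steady at the top: immune cells were above horizontal cells in 10 of 11 libraries, horizontal cells above Müller glia in 11 of 11, and Müller glia above astrocytes in 9 of 9. At the bottom, GABAergic amacrine cells, with a mean of 10.3 CPM, were above glycinergic ones, with 9.97, in only 5 of 11 libraries. A UMI of *Itgb5* was found in 46.7% of immune nuclei (43.0 to 50.4, median depth 1798.5 UMIs) and in 1.80% of rods (1.68 to 1.94, median depth 1064 UMIs).

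Over all libraries, genotypes overlapped for *Itgb5* in immune cells, horizontal cells and Müller glia. In immune cells the control was at 341 CPM (242 to 466) and the CKO libraries at 140 (139.5) at the lowest, 269.7 at the median and 767, in CKO 4, at the highest. Within the control's batch, however, the 3 CKO libraries were all below it, between 139.5 and 248 CPM with a mean of 186. The log2 change of -0.18 over all libraries became -0.98 there (unadjusted p of 0.0405 and adjusted p of 0.720 by edgeR). The makeup of the immune label differed between libraries, and its part in this change was not tested. In horizontal cells the control was at 149.5 CPM and the CKO libraries at 95.8, 164 and 297, with 8 of 10 above the control, and the log2 change turned from 0.14 to -0.30 within the batch. In Müller glia the control was at 95.3 CPM and the CKO libraries at 78.4, 103 and 130.3. The control lay above 10 of 10 CKO libraries in glycinergic amacrine cells, at 13.6 CPM against 5.91 at the lowest, 8.76 at the median and 13.3 at the highest, with a log2 change of -0.61 (SE 0.42) and an unadjusted p of 0.172 by edgeR. With batch as covariate it was -1.003 (unadjusted p of 0.0299) and within the control's batch -1.01 (0.0315), with adjusted p of 1.00 and 0.893. Fitted log2 changes over its 10 labels ran from -0.61 to 0.31.

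*Itgb8*, whose product joins alpha v on glia, was high in Müller glia and astrocytes. The means were 171 CPM ± 58.9 (SD, n = 11) in Müller glia, 108 ± 85.3 (n = 9) in astrocytes, 12.9 ± 8.91 (n = 11) in horizontal cells and 9.87 ± 14.6 (n = 12) in ganglion cells, the last with CKO 4 at 55.3. The other labels lay between 7.28 CPM in rod bipolar cells and 1.22 in cones. Müller glia were above astrocytes in 8 of 9 libraries, astrocytes above horizontal cells in 7 of 9, and horizontal cells above ganglion cells in 10 of 11. Ganglion cells were above rod bipolar cells in only 3 of 11, and their CKO mean without CKO 4 and 5 was 6.21 CPM. A UMI of *Itgb8* was found in 38.5% of Müller glia (36.8 to 40.3) and in 0.185% of rods (0.146 to 0.232), at median depths of 3354 and 1064 UMIs.

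With the kit as covariate, Müller glia gave the only member pair below an unadjusted p of 0.05; other settings gave up to 3 such pairs, among them *Itgb5* in glycinergic amacrine cells and in immune cells and *Itgb8* in astrocytes. Among libraries of the v4.0 PLUS kit alone, the control's own, the pair in Müller glia had an unadjusted p of 0.0539 and an adjusted p of 1.00 by edgeR. For *Itgb8* the control stood at 80.7 CPM (67.0 to 96.4, 122 UMIs), and the CKO libraries at 91.4 at the lowest, 183 at the median and 252 at the highest, with a mean of 180.4 ± 53.4 (SD, n = 10). All 10 CKO libraries were above the control, although the interval of the control reaches past the lowest of them. The fitted log2 change was 0.87 (SE 0.35), with an unadjusted p of 0.0275 and an adjusted p of 0.761 by edgeR, so that the difference did not pass the test over all genes. Of 12789 genes in Müller glia 786 (6.15%) had an unadjusted p below 0.05, next to 1 of the 3 members fitted there. Over 9 other settings the log2 change lay between 0.81 and 1.06, and the adjusted p between 0.365 and 1.00.

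Kit and batch moved with the level of *Itgb8* in Müller glia. The 6 CKO libraries of the v4.0 PLUS kit were at 91.4 CPM at the lowest, 157 at the median and 202 at the highest, with a mean of 151. The 4 CKO libraries of the v5.0 kit were at 182, 232 and 252, with a mean of 224. Within the batch of the control, CKO 1, 2 and 3 were at 202, 185 and 116 CPM, against 80.7. In CKO 1, 2 and 7, whose *Xist* was high, as in the control, and which hold enough Müller glia, *Itgb8* was at 202, 185 and 91.4 CPM, so that the control was the lowest library within its own kit, its own batch and among those with high *Xist*. *Itgb5* in Müller glia also differed by kit among CKO libraries, with means of 93.6 CPM for v4.0 PLUS and 120.1 for v5.0, but the control, at 95.3, was within the range of the v4.0 PLUS libraries. The alpha subunits that were highest next to it in this label were *Itga9* and *Itgav*. *Itgav*, the partner of *Itgb8*, was at 243 CPM in the control and at 219.7, 289.8 and 353 in CKO, with 9 of 10 above the control and an adjusted p of 0.961. *Itga9*, which pairs with beta 1, was at 197 CPM in the control and at 268, 364 and 508 in CKO, with 10 of 10 above the control, a log2 change of 0.87 (SE 0.34) and an adjusted p of 0.733 from the same edgeR fit.

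In retinal astrocytes *Itgb8* was not detected in the control. Its 12 astrocytes held 31274 UMIs, of which 0 were *Itgb8*, which allows up to 95.9 CPM (3 counts), and the CKO libraries were at 0 at the lowest, 126 at the median and 234 at the highest. A UMI was found in 7 of 8 CKO libraries, and the CKO median is above the limit that the control allows, while the low CKO libraries are within it. The adjusted p was 0.601 by edgeR, the lowest of any member pair with the kit as covariate, and the fitted change is not given because the control is at 0. *Itgav* was at 296 CPM ± 88.5 (SD, n = 9) in astrocytes. In the other labels fitted, the log2 change of *Itgb8* ran from -1.67 in rods, with an SE of 1.19, to 0.53 in ganglion cells, with an SE of 0.81. The change in rods was -0.41 with no covariate and -0.80 with batch as covariate, at levels of 1.63 CPM in the control and a mean of 1.30 in CKO.

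*Itgb3*, the partner of alpha v that also forms the fibrinogen receptor of platelets with alpha IIb, was low throughout the retina. Its highest means were 4.45 CPM ± 6.93 (SD, n = 12) in immune cells, from 16 UMIs, and 3.27 ± 7.70 (n = 12) in ganglion cells, where CKO 4 gave 27.7. This order was not steady. Immune cells were above ganglion cells in 4 of 12 libraries, and ganglion cells above Müller glia, with a mean of 2.01 CPM, in 4 of 11. Without CKO 4 and 5 the CKO mean in ganglion cells was 0.985 CPM. GABAergic amacrine cells, with 1.71 ± 0.818 (n = 11) from 77 UMIs, were the only label with enough UMIs for the fit. There the control was at 1.62 CPM and the CKO libraries at 0.451 at the lowest, 1.88 at the median and 2.86 at the highest, a fitted log2 change of 0.00 with an SE of 0.42. In Müller glia, with 25 UMIs in all, the control was at 0.662 CPM from 1 UMI, and 10 of 10 CKO libraries were above it, too few UMIs for the fit.

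*Itgb2*, the beta subunit of the leukocyte integrins LFA-1 and Mac-1, was highest in the immune label, which held 125 of its 203 UMIs in the retina. The mean there was 49.8 CPM ± 37.8 (SD, n = 12), and the means of the other 10 labels were at most 0.740. A UMI was found in 14.4% of immune nuclei (11.96 to 17.2) and in 0.0561% of rods (0.0355 to 0.0841). The control gave 26.2 CPM from 3 UMIs (5.40 to 76.6), and the CKO libraries 0 in CKO 3 at the lowest, 37.7 at the median and 139 in CKO 4 at the highest. While 10 of 11 CKO libraries were above the control, the interval of the control includes the CKO median, and the fitted log2 change was 0.77 with an SE of 1.22. With batch as covariate it turned to -0.22, and the CKO mean within the control's batch, 23.5 CPM, was below the control.

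*Itgb7*, which pairs with alpha 4 and alpha E in gut-homing and tissue-resident leukocytes, was the rarest member of the retina with 93 UMIs in all. Immune cells held 25 of these and a mean of 10.6 CPM ± 13.1 (SD, n = 12), or 4.45 CPM among nuclei with at least 1000 UMIs, and no other label was above a mean of 0.448. The control had 0 UMIs among 29 immune nuclei, which allows up to 26.2 CPM, and the CKO libraries were at 0, 7.71 and 46.5, the last from 2 UMIs in CKO 4. A UMI was found in 8 of 11 CKO libraries, but with the median of CKO below the limit that the control allows, a difference was not detectable at this depth. *Itgb4* and *Itgb7* passed the filter of the fit in none of the 11 labels.

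The makeup of the immune label differed between genotypes in the lists given here, and its part in the levels above was not tested. The microglial and neutrophil lists by genotype are not given here. Summed over its markers, the macrophage and monocyte list was at 8.74 CPM in the control, from 1 UMI with 7 of 8 markers at 0, and at 38.9 at the lowest, 401 at the median and 1278 at the highest in CKO, with 11 of 11 above the control. The lymphoid list gave 17.5 CPM in the control, from 2 UMIs, and 15.6, 99.0 and 186 in CKO, with 9 of 11 above the control. The dendritic list gave 0 in the control, which allows up to 26.2 CPM, and 23.3, 53.9 and 147 in CKO. Rod transcripts were present in this label in both genotypes, with 5443 CPM in the control and a CKO median of 4970.

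Within the immune label the members differed by the markers a nucleus held. Over all libraries, the 283 nuclei with UMIs of microglial markers but of no other immune list had *Itgb5* at 385 CPM (347 to 426), *Itgb2* at 48.3 (35.5 to 64.3) and *Itgb7* at 2.06 (0.249 to 7.43). In the 61 nuclei with macrophage or monocyte markers and no microglial one, *Itgb5* was lower, at 103 CPM (53.2 to 179.7), and *Itgb2* and *Itgb7* were higher, at 146 (84.9 to 233) and 85.7 (41.1 to 158). The intervals of these sets do not overlap for any of these genes. The 34 nuclei with lymphoid markers and no microglial one had *Itgb1* at 379 CPM (240.2 to 569), against 103 (83.7 to 125) in the microglial set, and *Itgb7* at 115 (46.4 to 238), with a lone UMI of *Itgb5*. In the 15 nuclei with dendritic markers and no microglial one, *Itgb7* was at 139 CPM (38.0 to 357) and *Itgb5* had 0 UMIs. The macrophage or monocyte, lymphoid and dendritic sets exclude only microglial markers. The same nucleus can be in several of them, so their values are not those of separate cell types. Counted the other way, 322 of the 336 immune nuclei with *Itgb5* (95.8%) also had a microglial marker, next to 250 of 384 (65.1%) without *Itgb5*. Of the 21 nuclei with *Itgb7*, 10 had a microglial, 16 a macrophage or monocyte, 11 a dendritic and 7 a lymphoid marker. Nuclei with a member's UMI were deeper, for *Itgb5* at a median of 2889 UMIs against 1168.5, and nuclei of all libraries were summed, so that these values describe the label and do not compare genotypes.

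Alpha partners of the leukocyte members were found in the same label. *Itga4*, the partner of *Itgb1* and *Itgb7*, was at 17.5 CPM in the control, from 2 UMIs, and at 80.1 at the lowest, 139 at the median and 243 at the highest in CKO. All 11 CKO libraries were above the control, with a log2 change of 3.00 (SE 0.92), an unadjusted p of 0.00448 and an adjusted p of 0.997 by edgeR. *Itgax*, a partner of *Itgb2* in dendritic cells, had 0 UMIs in the control, which allows up to 26.2 CPM, and was at 16.0, 23.3 and 46.2 in CKO, with a UMI in 11 of 11 libraries. *Itgal*, the alpha subunit of LFA-1, was at 8.74 CPM in the control and at 0, 37.7 and 139 in CKO, and *Itgae*, the partner of *Itgb7* that binds E-cadherin, at 0 in the control and 0, 3.60 and 46.5 in CKO. *Itgam*, the alpha subunit of Mac-1, had 0 UMIs in the immune nuclei of all 6 libraries of batch 3 and can be read only in the others: within batch 1 the control was at 314 CPM and the CKO libraries at 132, 149 and 160.2, and in batch 2 CKO 4 was at 1208 CPM and CKO 5 at 183.

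*Itgb4*, of the laminin receptor alpha 6 beta 4, was near the floor in the retina except in astrocytes. There its mean was 17.8 CPM ± 15.2 (SD, n = 9) from 22 UMIs, and the means of the other labels were at most 1.82. The control had 0 UMIs in astrocytes and 6 of 8 CKO libraries had at least 1, with the highest at 39.9 CPM, below the 95.9 CPM that the control allows. *Itga6*, its partner, was at 149 CPM ± 71.1 (SD, n = 9) in the same label.

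**Figure D1:**
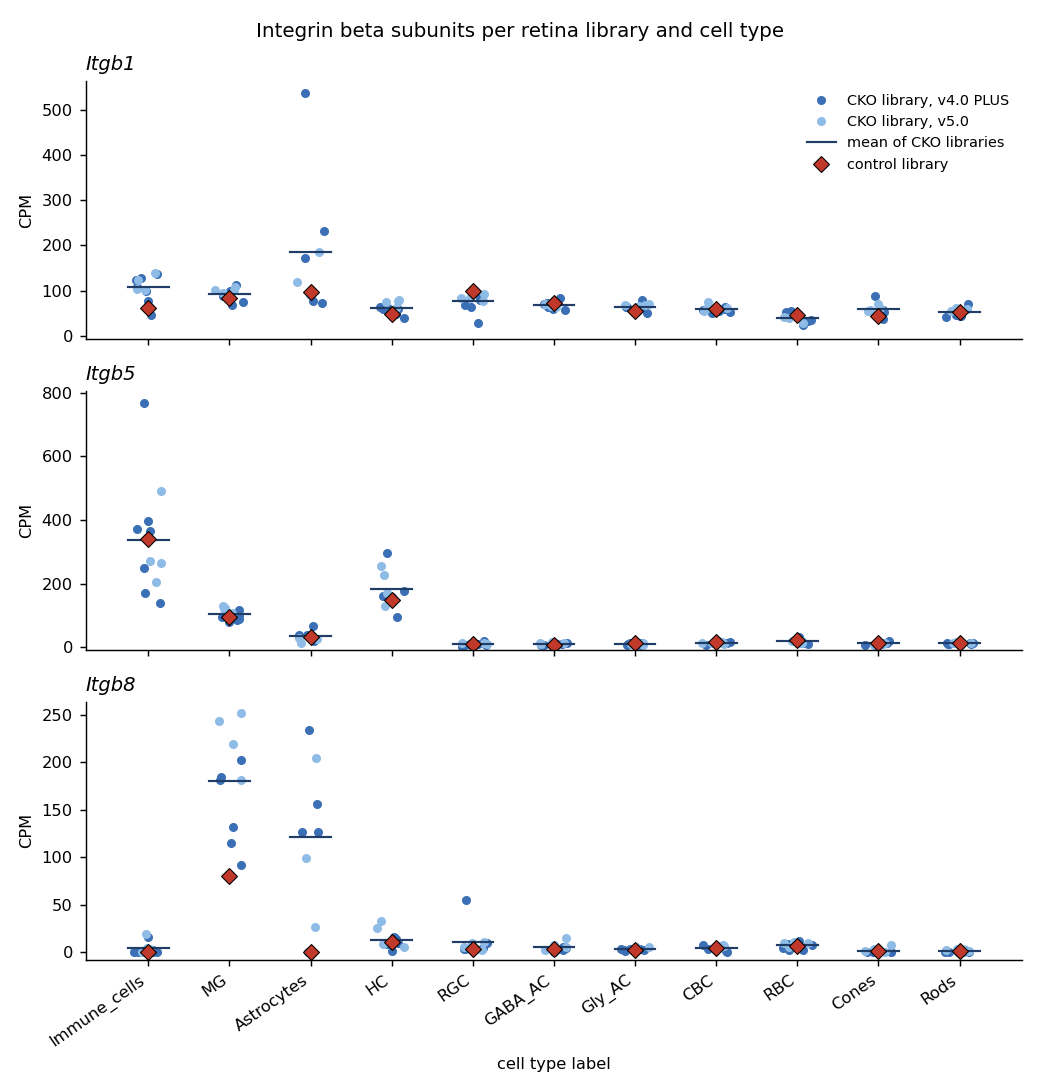
Levels of *Itgb1*, *Itgb5* and *Itgb8* (CPM, y axis) in the 11 cell type labels of the retina (x axis), with a point for each library with at least 10 nuclei of the label, the control as a red diamond, CKO libraries of the v4.0 PLUS kit in dark blue and of the v5.0 kit in light blue, and a line at the mean of the CKO libraries. *Itgb8* in Müller glia (MG) is at 80.7 CPM in the control and between 91.4 and 252 in the CKO libraries, and the control lies within the CKO range for *Itgb5* in immune cells and Müller glia.

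Over all nuclei of a library, *Itgb8* was the only member with the control below every CKO library. It was at 7.03 CPM in the control and at 7.86 at the lowest, 12.8 at the median and 24.2 at the highest of 11 CKO libraries. A two-sided exact permutation test over libraries gave p = 0.167, where 0.0833 is the smallest p that 1 against 11 allows, so this design cannot reach 0.05. Within the control's batch, the CKO mean was 11.0 CPM (n = 3), and the exact p of 0.25 is the smallest possible there. *Itgb1* was at 62.2 CPM in the control and at a mean of 60.3 ± 10.7 (SD, n = 11) in CKO. The CKO mean turned to above the control without CKO 4, at 63.0 CPM, and within the control's batch, at 65.1. *Itgb5* was at 21.0 in the control and, without CKO 4 at 365, at 25.1 ± 3.51 (SD, n = 10) in CKO. CKO 4, with its large immune share, was likewise far above the others for *Itgb2*, at 66.3 CPM from 6 UMIs, where the control was at 0.258 and the other CKO libraries had a mean of 0.744, with 9 of 10 above the control. The exact permutation p of the 7 members ran from 0.167 to 0.833.

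In the brain, with 1 library per genotype, differences have no replicate check, and no test was made. Levels are given in 19 labels with at least 50 nuclei in each library; microglia, with 129 and 11 nuclei, and pericytes, with 201 and 22, fall below that. Ratios of CKO over control are given with an exact 95% interval for genes with at least 20 UMIs in a label. Scaling with TMM in place of all UMIs moved the log2 ratios of a label by -0.10 in ECs, -0.12 in the choroid plexus label CP_8, -0.17 in vSMCs, -0.20 in the glutamatergic label Glut_20, -0.22 in both the label glia and the GABAergic label GABA_22, -0.24 in astrocytes, -0.35 in OPCs, -0.62 in Glut_5, 0.11 in Glut_17 and 0.15 in oligodendrocytes. For microglia and pericytes, with few nuclei in CKO, it moved them by -1.15 and -1.45.

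*Itgb1* marked the cells of the vessel wall in the brain. It was at 823 CPM in control and 748 in CKO nuclei in ECs, at 751 and 793.5 in vSMCs, and at 256 and 337 in the label glia. Pericytes, below the limit of nuclei, gave 525 and 543 CPM. All other labels were at most 42.3 CPM in either library, astrocytes at 8.07 and 9.89, and microglia had 0 UMIs in both. ECs and vSMCs changed places between the libraries, while the label glia came next in both. The retina has no label for ECs, pericytes or vSMCs, so its levels cannot be set beside these.

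In brain ECs the ratio of *Itgb1* was 0.909 (0.874 to 0.946), from 4777 UMIs in control and 5128 in CKO nuclei. It is below 1 by more than counting error, and lower than the median ratio of all genes in ECs, 1.10, but it depends on which nuclei are taken. Only 363 of 2475 control and 133 of 2944 CKO EC nuclei had no UMI of a pericyte marker, and in these *Itgb1* was at 142 CPM in control and 537 in CKO nuclei on 73 UMIs, a ratio of 3.77 (2.32 to 6.19). These nuclei were shallow, with medians of 505 and 444 UMIs, and among EC nuclei with at least 1000 UMIs the ratio was 0.896. In vSMCs the ratio was 1.06 (0.906 to 1.23), or 0.937 with TMM scaling, and in the label glia 1.32 (1.10 to 1.58), or 1.13. In neurons the ratio of *Itgb1* was 2.42 (1.36 to 4.42) in Glut_21, from 20 and 35 UMIs. It was 0.0925 (0.00223 to 0.578) in GABA_9, from 20 and 1, and 0.373 (0.110 to 1.02) in Glut_1, from 21 and 5.

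*Itgb5* in ECs was at 43.6 and 44.5 CPM, with a ratio of 1.02 (0.861 to 1.21) that TMM scaling turned to 0.95. *Itgb1* and *Itgb5* were the only members with at least 100 UMIs in ECs, and 0 of the 2 were past a fold of 1.5, next to 1893 of 9792 genes higher in CKO (19.3%) and 752 lower (7.68%). With TMM scaling, 1500 genes were higher and 1006 lower past that fold.

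The other members were scarce in brain ECs. *Itgb3* had 15 UMIs in control and 26 in CKO nuclei, a ratio of 1.47 (0.749 to 2.98). *Itgb2* had 9 and 18, a ratio of 1.69 (0.722 to 4.28). Both intervals include 1. *Itgb8* had 15 and 5, a ratio of 0.282 (0.0802 to 0.817), at levels of 2.59 and 0.730 CPM, among the lowest of this gene in the brain. *Itgb7* had 0 and 5 UMIs, and *Itgb4* was at 1.03 and 1.31 CPM.

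Among the partners of alpha v in the brain, *Itgb5* was high in several glial and vascular labels. It was at 140.2 CPM in control and 162 in CKO nuclei in the label glia, at 165 and 136 in astrocytes, at 98.1 and 137 in CP_8, at 66.3 and 95.8 in CP_6, and at 82.8 and 46.4 in vSMCs. Pericytes, with few nuclei, gave 443 CPM in control and 326 in CKO nuclei, the latter from 3 UMIs. Microglia gave 938 CPM from 75 UMIs (738 to 1176) in the control and 410 (409.9) from 6 UMIs in the CKO library, a ratio of 0.437 (0.155 to 0.996). The median ratio of the 130 genes with at least 100 UMIs in microglia, a count that *Itgb5* did not reach, was 0.323. The ratio was 1.44 (1.15 to 1.80) in CP_6 and 1.40 (1.09 to 1.78) in CP_8. Without TMM scaling, intervals included 1 in the label glia (1.16, or 0.996 with TMM scaling) and in astrocytes (0.827, or 0.701 with TMM scaling). In vSMCs it was 0.561 (0.283 to 1.01) on 12 UMIs in the CKO library.

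*Itgb8* in the brain was highest in macroglia, in the labels CP_6 and CP_8 and in the label glia. It was at 240.0 CPM in control and 237 in CKO nuclei in astrocytes, at 192 and 115 in OPCs, at 184 and 152 in CP_6, at 146 and 99.2 in CP_8, at 134 and 126 in oligodendrocytes and at 98.7 and 168 in the label glia. Astrocytes were the highest of 19 labels in both libraries. Neurons were lower, with 49.1 and 23.5 CPM in Glut_11 and 29.3 and 16.9 in Glut_0.

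*Itgb8* made up most of the members past the fold in the brain. Of 20 member and label pairs with at least 100 UMIs, 1 was higher past a fold of 1.5, against 7.23% of the 76090 gene and label pairs of the brain, and 4 were lower, against 10.8%; the median ratio of the 20 was 0.971. The higher pair was *Itgb8* in the label glia, with a ratio of 1.71 (1.30 to 2.23), where 16.3% of genes were higher; with TMM scaling it was 1.47, below the fold. Lower were *Itgb8* in Glut_0, at 0.577 (0.471 to 0.705; 11.1% of genes lower), in Glut_11, at 0.479 (0.307 to 0.726; 13.6%), and in OPCs, at 0.598 (0.366 to 0.942; 18.9%), and *Itgb5* in vSMCs (11.8%). With TMM scaling *Itgb8* in CP_8 also passed it, at 0.628. These pairs share a gene or a library and are not independent.

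Over the labels named Glut or GABA the ratio of *Itgb8* could be given in 7. It was below 1 in 5 of them, each with an interval below 1. Besides Glut_0 and Glut_11 these were Glut_1 at 0.392 (0.216 to 0.674, 68 and 17 UMIs), Glut_14 at 0.397 (0.167 to 0.848, 33 and 9) and GABA_9 at 0.425 (0.235 to 0.727, 74 and 17). In these labels 11.7%, 5.50% and 6.71% of genes with at least 100 UMIs were lower past the fold. *Itgb8* had fewer UMIs than that in each of them, so these shares are no background for it. Glut_20 and Glut_21 were at 1.56 and 1.29, with intervals that include 1. CKO nuclei were shallower in these labels and in others, with a median of 2314 against 5004 UMIs in Glut_0, 1804 against 4669 in Glut_11 and 616.5 against 986 in OPCs, but also 2750.0 against 5946.5 in Glut_21 and 578.5 against 1150.5 in astrocytes, and the part of depth in the ratios was not tested. Among nuclei with at least 1000 UMIs the ratio was 0.597 in Glut_0 and 0.510 in Glut_11. In astrocytes and oligodendrocytes, unlike in OPCs, intervals included 1, with ratios of 0.989 (0.796 to 1.22) and 0.942 (0.729 to 1.21), or 0.838 and 1.05 with TMM scaling.

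The remaining members were found in few brain labels. *Itgb4* was at 106 CPM in control and 128 in CKO nuclei in the label glia, at 59.1 and 56.3 in CP_6, at 13.6 and 19.4 in vSMCs and at 8.38 and 11.0 in oligodendrocytes, in the same order in both libraries. Its ratios in the label glia (1.21) and in CP_6 (0.954) had intervals that include 1. *Itgb3* was at most 11.6 CPM in labels with enough nuclei, with vSMCs highest at 9.05 and 11.6, and its ratio in Glut_0 was 1.23 (0.804 to 1.89). In microglia 5 UMIs of the control gave 62.6 CPM (20.3 to 146). *Itgb2* had 40 UMIs in the whole brain matrix and *Itgb7* 45, of which oligodendrocytes held 8 in each library.

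**Figure D2:**
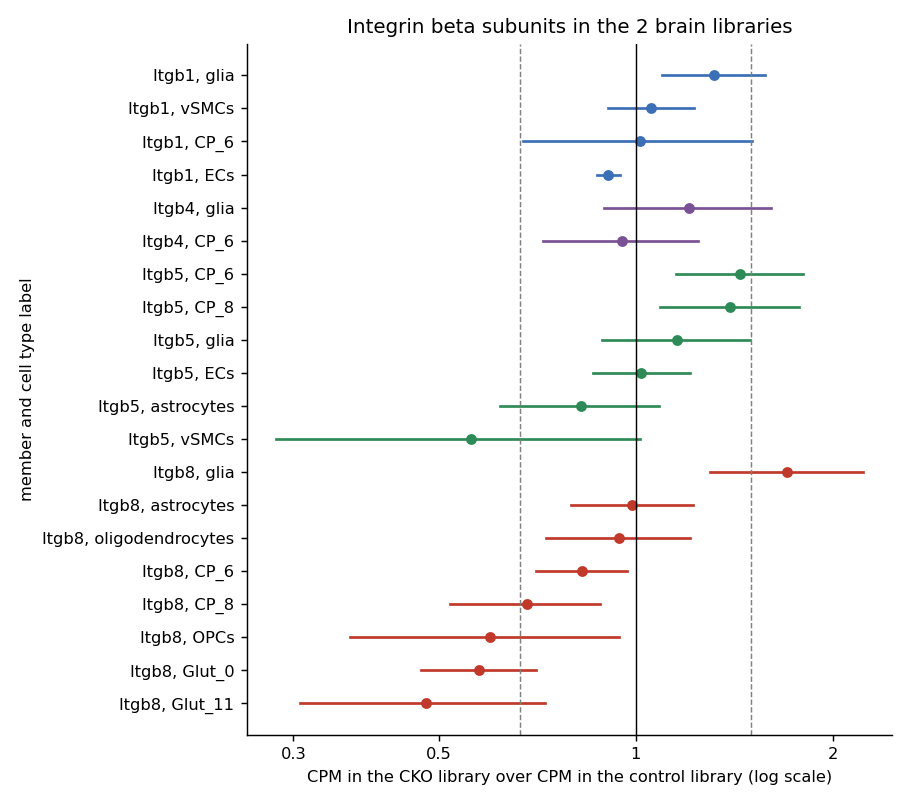
Ratio of CKO over control CPM (log axis) for the 20 pairs of a member and a brain cell type label with at least 100 UMIs, with bars for exact 95% intervals that cover counting error only; the dashed lines mark a fold of 1.5 in either direction. *Itgb8* in the label glia is above the upper line at 1.71, or 1.47 with TMM scaling, and *Itgb8* in Glut_0, Glut_11 and OPCs and *Itgb5* in vSMCs are below the lower line.

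Alpha partners followed their own patterns where these members are high. *Itga1*, a collagen receptor subunit that pairs with beta 1, was at 1464 CPM in control and 1780.1 in CKO brain ECs, at 1306 and 1494 in vSMCs, and at 7403 and 7489 in pericytes. *Itga6*, a laminin receptor subunit that pairs with beta 1 or beta 4, was at 444 and 567 CPM in ECs but at 42.7 and 38.1 in the label glia and at 36.4 and 44.6 in CP_6, where *Itgb4* is highest. *Itgav* was highest in astrocytes, at 259 and 249 CPM, as *Itgb8* was. *Itga2b*, the platelet partner of *Itgb3*, was highest in CP_6, at 21.5 and 19.0 CPM.

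Of the alpha subunits with at least 100 UMIs in brain ECs, 10 of 18, 2 were higher past a fold of 1.5 and 3 lower, with a median ratio of 1.06 next to 1.10 over all genes, of which 19.3% were higher and 7.68% lower. *Itga2*, a collagen receptor subunit that pairs with beta 1, had 23 UMIs in control and 382 in CKO nuclei, a ratio of 14.1 (9.23 to 22.5). *Itga4* had a ratio of 1.59 (1.51 to 1.68), which the TMM shift of ECs, a log2 of -0.10, takes below the fold of 1.5. *Itga5*, of the fibronectin receptor, was at 0.647, *Itga8* at 0.487 and *Itga9* at 0.589. In the retina 99 pairs of alpha subunits and labels were fitted, of which edgeR and DESeq2 called 0, with 8 and 4 at an unadjusted p below 0.05, next to 3.25% of all pairs by edgeR. The list of other beta subunits, *Itgb6* and *Itgb2l*, had 0 genes or pairs with enough UMIs in either tissue.

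Of the cytoplasmic partners of integrin tails, 21 of 26 had at least 100 UMIs in brain ECs. Their median ratio was 1.15, next to 1.10 over all genes, and past the fold 1 was higher and 1 lower, next to 19.3% and 7.68% of all EC genes; *Itgb3bp*, named for its binding to the beta 3 tail, was higher at 2.45 (1.69 to 3.63) and the kinase gene *Src* lower at 0.657 (0.559 to 0.772). In the retina edgeR and DESeq2 called 0 of 219 pairs, with 9 and 4 at an unadjusted p below 0.05, against 3.25% of all pairs by edgeR.

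Genes of latent TGF-beta and its release are the ligand side of alpha v beta 8. In brain ECs, with at least 100 UMIs for 6 of 10 genes, the median ratio was 2.29, with 4 higher and 1 lower past the fold, next to 19.3% higher and 7.68% lower over all EC genes; the difference was not tested. *Ltbp1*, which ties latent TGF-beta to the matrix, had a ratio of 4.64 (3.23 to 6.86). *Nrros* and *Lrrc32*, which hold latent TGF-beta at the cell surface, were at 2.99 (2.57 to 3.50) and 2.68 (2.13 to 3.40), and *Tgfb2* was at 1.90 (1.78 to 2.03). *Ltbp4* was lower, at 0.579 (0.549 to 0.611). The retina gave 41 pairs, of which edgeR and DESeq2 called 0, with 4 at an unadjusted p below 0.05 by either, next to 3.25% of all pairs by edgeR.

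Of the cell surface ligands of leukocyte integrins, 7 of 10 could be counted in brain ECs, with a median ratio of 0.822, 1 higher and 0 lower, next to the same shares of all EC genes. The higher was *Madcam1*, the ligand of alpha 4 beta 7, with 18 UMIs in control and 120 in CKO nuclei, a ratio of 5.64 (3.42 to 9.85). *Icam1*, the ligand of beta 2 integrins, had a ratio of 1.02 (0.856 to 1.22), and *Vcam1*, the ligand of alpha 4 beta 1, of 0.741 (0.601 to 0.912). In the retina edgeR and DESeq2 called 0 of 33 pairs, with 1 at an unadjusted p below 0.05 by either, against 3.25% of all pairs by edgeR.

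Among the matrix ligands, 21 of 24 had at least 100 UMIs in brain ECs, with a median ratio of 0.794. Past the fold 2 were higher and 6 lower, next to 19.3% and 7.68% of all EC genes, a difference that was not tested. With TMM scaling 1500 of all EC genes were higher and 1006 lower, and no such count of the list is given. *Fn1*, which encodes fibronectin, was at 1850 (1849.9) CPM in control and 503 in CKO nuclei, a ratio of 0.272 (0.262 to 0.283). *Spp1*, for osteopontin, was at 0.256, the laminin gene *Lama5* at 0.397, *Vwf* at 0.605, *Nid1* at 0.611 and *Col1a1* at 0.665. *Npnt*, for the alpha 8 beta 1 ligand nephronectin, and *Tnc*, for tenascin C, were higher, at 1.92 (1.47 to 2.52) and 1.79 (1.28 to 2.53). In the retina edgeR called 0 of 140 pairs, with 17 at an unadjusted p below 0.05, next to 3.25% of all pairs, and DESeq2 called 1, next to 0.838% of all pairs. That pair, named after its values had been seen, was *Fn1* in Müller glia, at 38.4 CPM in the control and 93.8 at the lowest, 218 at the median and 339 at the highest in CKO, with 10 of 10 above the control. Its log2 change was 2.51 (SE 0.70) with an adjusted p of 0.535 by edgeR, and 2.52 with an adjusted p of 0.0274 by DESeq2.

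Genes with a pattern like that of a member were ranked by the Pearson correlation of log2(CPM + 10) over cell type labels, as a description. In the brain, over 21 labels and 14447 genes, the gene most like *Itgb1* was *Tln1* (r = 0.990), which encodes the talin that binds integrin tails, followed by *Elk4* (0.981) and *Sav1* (0.977). Most like *Itgb3* were the microglial genes *Fcer1g* (0.853), *C1qa* (0.845) and *C1qb* (0.839); like *Itgb4*, *Adamtsl4* (0.926), *Ikbke* (0.910) and *Dcdc2a* (0.897); like *Itgb5*, *Tnfaip8* (0.955), *Zfp395* (0.937) and *Il15* (0.925); and like *Itgb8*, *Syde2* (0.844), *Gm16759* (0.839) and *Nckap5* (0.837). Among the members themselves no pair went above 0.583 in the brain and 0.689 in the retina, both between *Itgb1* and *Itgb4*. The points share libraries and differ in depth, and 1 label with a high level can set such a value.

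In the retina, over 11 labels and 17302 genes, the closest were *Mtap* (0.968), *Polm* and *Plet1os* (0.961 each) for *Itgb1*, and *St6gal1* (0.974), *Plxdc1* (0.962) and *Arl5c* (0.956) for *Itgb3*. *Tlr7*, *Arhgap25* and *Ugt1a6b* were at 0.999 or above (0.9997, 0.9996 and 0.9995) for *Itgb2*, all high in the immune label only. For *Itgb4* they were *Zic4* (0.997), *Serpina3n* (0.997) and *Chdh* (0.995), for *Itgb5* *Myo9b* (0.964), *Egln3* (0.954) and *Stk10* (0.938), and for *Itgb8* *Rgcc* (0.994), *Lcat* (0.990) and *Gcnt4* (0.988). *Itgb2* and *Itgb7* in the brain and *Itgb7* in the retina had too few UMIs to be ranked.

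The members are spread over 6 chromosomes of GRCm39: *Itgb1* at chr8:129411876-129460618, *Itgb2* at chr10:77366086-77401542, *Itgb3* and *Itgb4* on the same chromosome at chr11:104498826-104561302 and chr11:115865333-115899239, *Itgb5* at chr16:33649988-33771137, *Itgb7* at chr15:102124429-102140379 and *Itgb8* at chr12:119121748-119202584. *Itgb7* and *Itgb8* lie on the minus strand and the other members on the plus strand.

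Promoter sequences, 250 bases before to 50 after the start of the gene, were taken from RefSeq on GRCm38.p6, where 4 of the 7 members were matched in the table used; *Itgb2*, *Itgb3* and *Itgb4* were not in that table. The promoters of *Itgb8* and *Itgb7* are shown because *Itgb8* is the member whose control library lay below the CKO libraries and *Itgb7* the most immune-restricted member with an entry. They were searched for CAGAC, the short element bound by SMAD proteins of the TGF-beta pathway, and for GAGGAA, the core of sites of the myeloid factor PU.1, on both strands. CAGAC or its reverse GTCTG occurs in 49.6% of 32851 promoters of this length and GAGGAA or its reverse TTCCTC in 28.3%, so that a match is a description and not a site. Capitals mark the match to CAGAC in *Itgb8*, at base 55 of chr12:119238227-119238526 on the minus strand, and the match to TTCCTC in *Itgb7*, at base 253 of chr15:102231886-102232185 on the minus strand, each read 5′ to 3′.
Itgb8: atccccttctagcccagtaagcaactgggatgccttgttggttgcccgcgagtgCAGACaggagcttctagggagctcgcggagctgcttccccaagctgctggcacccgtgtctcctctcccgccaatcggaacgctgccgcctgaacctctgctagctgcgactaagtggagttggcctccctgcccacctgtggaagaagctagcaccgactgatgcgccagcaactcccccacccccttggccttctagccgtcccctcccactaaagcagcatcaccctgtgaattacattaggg
Itgb7: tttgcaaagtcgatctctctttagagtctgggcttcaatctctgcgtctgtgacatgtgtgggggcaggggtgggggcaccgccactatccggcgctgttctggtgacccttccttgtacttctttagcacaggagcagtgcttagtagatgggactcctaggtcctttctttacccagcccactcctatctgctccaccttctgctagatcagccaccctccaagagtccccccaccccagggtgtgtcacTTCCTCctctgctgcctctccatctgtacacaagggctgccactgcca
The *Itgb7* promoter also holds GTCTG at bases 26 and 46. The *Itgb1* promoter holds CAGAC at base 75, GTCTG at bases 46 and 170 and GAGGAA at base 242, and the *Itgb5* promoter neither motif.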

How the data were processed

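The authors deposited integer counts of UMIs for each nucleus, obtained with PIPseeker and cleaned with CellBender, SOLO and a curation by hand. Cell type, batch and kit labels are theirs. The methods name GRCm39 and the labels mm10, and gene positions are those of GRCm39. Members and lists were chosen with earlier results of these data known. UMIs were summed per label and library and divided by all UMIs of the label. Retina labels with at least 10 nuclei in the control and in at least 4 CKO libraries were fitted with edgeR 4.0.16 (TMM, quasi-likelihood, kit as covariate, genes with at least 50 UMIs, Benjamini-Hochberg threshold 0.05) and with DESeq2 1.42.0, in R 4.3.3. Brain folds used genes with at least 100 UMIs. Intervals are exact Poisson for levels, exact binomial for shares and conditional binomial for ratios; a count of 0 allows 3. Genes named are the members, their alpha partners, list genes past the fold in brain ECs or called in the retina, and the 3 genes most like a member with at least 200 UMIs. Also named are *Itgb6*, *Itgb2l*, *Icam1*, *Vcam1*, *Xist*, *Tgfbr1*, marker genes and the pairs called over all retina genes. Alternatives covered scaling, depth, filters, covariates and libraries. Sums and intervals used scipy 1.17.1, numpy 2.4.6 and pandas 2.3.3 in Python 3.11.15, and plots matplotlib 3.10.9.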

Additional observations from a re-analysis of the deposited data

Results flagged for a closer look

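In 3 of the 26 groups of CKO retina libraries that were checked, a member's level in 1 library stood far from the others. Chance alone does this in about 1 in 20 groups. *Itgb1* in astrocytes was at 538 CPM in CKO 2, from 8 UMIs in 12 nuclei, with the next library at 233 (n = 8). *Itgb1* in cone bipolar cells was at 74.3 CPM in CKO 8, with the next library at 63.0 (n = 10). *Itgb8* in GABAergic amacrine cells was at 15.1 CPM in CKO 8, from 44 UMIs in 268 nuclei, with the next library at 7.64 (n = 10). Immune cells and ganglion cells, with 11 CKO libraries each, were outside this check. There *Itgb8* in ganglion cells was at 55.3 CPM in CKO 4, against at most 10.5 in the CKO libraries other than CKO 4 and 5.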

How the results depend on the processing

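Some alternative values moved or changed direction; the cause was not tested. The count of members called in the retina was 0 in each of 9 alternatives. Of these, the v4.0 PLUS kit alone and genes with UMIs in both sets of batches were chosen after seeing the data. *Itgb1* in brain ECs, with a ratio of 0.909, was at 0.846 with TMM factors, 0.949 as the mean over nuclei and 3.77 in nuclei without a pericyte UMI. *Itgb5* in ECs, with 1.02, was at 0.95 with TMM factors, 0.947 in nuclei with at least 1000 UMIs and 1.39 as the mean over nuclei. Past a fold of 2, 734 EC genes were higher and 281 lower. With nuclei of at least 1000 UMIs, control levels were 122 CPM for *Itgb5* in the label glia and 215 for *Itgb8* in brain astrocytes. Calls over all retina genes, 1 higher and 3 lower, became 2 and 4 with batch as covariate, 3 and 4 with none, and 26 and 9 within the control's batch. They became 1060 and 45 with DESeq2, 8 and 14 with no filter, 6 and 8 for genes with UMIs in both sets of batches, and 1 and 1 for the v4.0 PLUS kit. CKO minus control over whole retina libraries was -1.90 CPM for *Itgb1*, 0.814 without CKO replicate 4 and 2.92 within the batch. *Itgb3* was at 1.10, 0.163 without CKO replicate 4 and -0.0872 within the batch, *Itgb5* at 34.99, 4.11 and -0.664, and *Itgb2* at 6.45, 0.486 and 0.216. *Itgb7* turned from 1.90 to -0.0804 without CKO replicate 4 and -0.0849 within the batch. No paired analysis was possible because the retina has a single control and the brain 1 library per genotype. With lone controls, a difference between a control library and the others cannot be told apart from genotype, and in the brain sex goes with genotype. Kit, batch and the makeup of the immune label differed between libraries. Low UMI counts limit *Itgb2*, *Itgb3*, *Itgb4* and *Itgb7*, and astrocytes and immune cells of the retina control were few.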
